A study of Mus musculus with 16 samples.

Results

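The genes described here are 10 transcripts of the amino acid stress response that the transcription factor ATF4 controls. They were chosen by name from the deposited table of read counts, which holds 25054 genes, and all 10 (*Atf4*, *Ddit3*, *Trib3*, *Chac1*, *Asns*, *Psat1*, *Phgdh*, *Shmt2*, *Mthfd2* and *Atf5*) were found and passed the filter on low counts. The table covers 16 mouse osteosarcomas, 8 labeled KO and 8 labeled WT. All mice carried OsxCreERT2+/- with floxed p53 (*Trp53*) and *Rb1*, both homozygous, and the KO mice also carried homozygous floxed *Arid1a*. Tamoxifen, 400 ug per gram of body weight, was given at 1 month of age, and tumors were taken from males and females older than 6 months. The Cre is driven by *Osterix*, so the alleles are lost only in cells of the bone lineage, and other cells in a tumor keep them. Each KO tumor came from its own mouse. By the animal codes in the labels only 4 mice gave the WT tumors. Mouse N42 gave 4 of them, N43 gave 2, and N215 and N25 gave 1 each, that of N25 being labeled as lung. *Arid1a* encodes a subunit of the SWI/SNF chromatin remodeling complex, and the comparison asked how its loss alters expression in these tumors. *Arid1a* itself ran from 107 CPM over a median of 179 to 270 CPM in KO and from 125 over 166 to 236 CPM in WT, and was not lower in KO (log2 fold change 0.16, adjusted p by edgeR 0.715). CPM are counts scaled to library size by the TMM method. This count is over the whole gene and does not read the floxed exons alone, so KO and WT are used here as the labels give them.

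When amino acids run short, or unfolded protein builds up in the endoplasmic reticulum, kinases phosphorylate the translation factor eIF2. General translation then slows while *Atf4* mRNA is translated more, so much of the control of ATF4 lies in translation and is not read from the level of its mRNA. ATF4 binds a composite DNA element together with C/EBP proteins and induces enzymes for asparagine, serine and folate metabolism, amino acid transporters and tRNA synthetases, as well as the stress regulators *Ddit3*, *Trib3* and *Atf5*. In bone, ATF4 is needed for osteoblast differentiation and collagen synthesis.

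The core of this composite element was searched as TGATGNAA, where N is any base, on both strands of the RefSeq promoter windows of GRCm38.p6, which run from 250 bases before to 50 bases after a transcript's start. It was present in 3 of the 12 windows of the 10 genes (25%), against 3.97% of all 32851 windows. The 3 sites shown are all the matches in these windows, and their genes peaked in different tumors, as described below. Capitals mark the match, and each run is read 5′ to 3′ on the strand that holds it.
*Chac1*, chr2:119351038-119351067, minus strand: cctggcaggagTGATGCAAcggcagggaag
*Trib3*, chr2:152344028-152344057, plus strand: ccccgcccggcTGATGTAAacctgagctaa
*Asns*, chr6:7693214-7693243, minus strand: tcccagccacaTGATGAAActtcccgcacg
Counted from the RefSeq start on the strand of the gene, the match began at −23 in *Asns*, at −193 in *Chac1* and at 15 in *Trib3*. The windows of the other 7 genes did not hold these letters, which says nothing about sites outside the windows or with other letters.

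The libraries differed in depth and content. The KO libraries held from 1109487 to 15059640 counts and the WT libraries from 7806160 to 16962329. Massa and Grilka were the shallowest, with 3 counts worth 6.69 CPM in Massa. In Massa the 10 genes had between 0 and 69 counts each. Summed skeletal muscle markers reached 134027 CPM in Oregon and 77518 in Montana, against 7546 at most in WT. Salivary gland markers reached 104826 CPM in Prince and lung markers 11041 CPM in Massa and 26347 CPM in the N25 tumor. Liver markers reached 1556 CPM in Zelda. The summed level of 3 genes that follow the ribosomal RNA left in a library lay between 3603 and 588378 CPM in KO and between 904 and 17714 in WT. These 3 are called ribosomal RNA genes below for short, although *Lars2* among them encodes a mitochondrial tRNA synthetase. Osteoblast markers summed to between 445 CPM in Prince and 42388 CPM in Grilka in KO, and to between 1846 CPM in the N25 tumor and 54727 CPM in WT. Macrophage markers summed to between 338 and 2092 CPM in KO (median 398) and between 700 and 2823 CPM in WT (median 2425). Of these 11 markers, 9 were lower in KO past the edgeR threshold, against 2.15% of all genes. All 3 ribosomal RNA genes were higher in KO past it, against 1.86% of all genes. The part of these differences in the results below was not tested except where a value is given. In such bulk samples fewer cells of a type cannot be told apart from less RNA per cell.

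The 10 genes did not change together between KO and WT. In edgeR's quasi-likelihood test over the 15413 genes that passed the filter, none of the 10 had a Benjamini-Hochberg adjusted p under 0.05, where 4.01% of all genes did. At an unadjusted p under 0.05 there were 2 of the 10, *Atf5* higher and *Trib3* lower in KO, against 23% of all genes. DESeq2 called 1 of the 10, *Atf5*, where it called 12.5% of the genes to which it gave an adjusted p. Of the fitted log2 fold changes 8 were positive and 2 negative (44.1% of all genes were negative), with a median of 0.21 against 0.10 over all tested genes, and they ranged from −0.89 for *Trib3* to 1.14 for *Atf5*. The KO and WT values overlapped for all 10 genes, and did not overlap for 0.415% of all genes. The 2 genes with the smallest permutation p-values, *Trib3* and *Atf5*, reached an adjusted p of 0.105 over the 10 (2-sided exact permutation tests of mean log2 CPM over all splits of the tumors). These tests take the WT tumors as independent although several share a mouse. With counts summed per mouse, 8 KO against 4 WT, the lowest edgeR adjusted p among the 10 was 0.598, for *Atf5*, and 0.0625% of genes were called. There *Atf5* was the 1 of the 10 with an unadjusted p under 0.05, against 7.88% of genes.

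**Figure D1:**
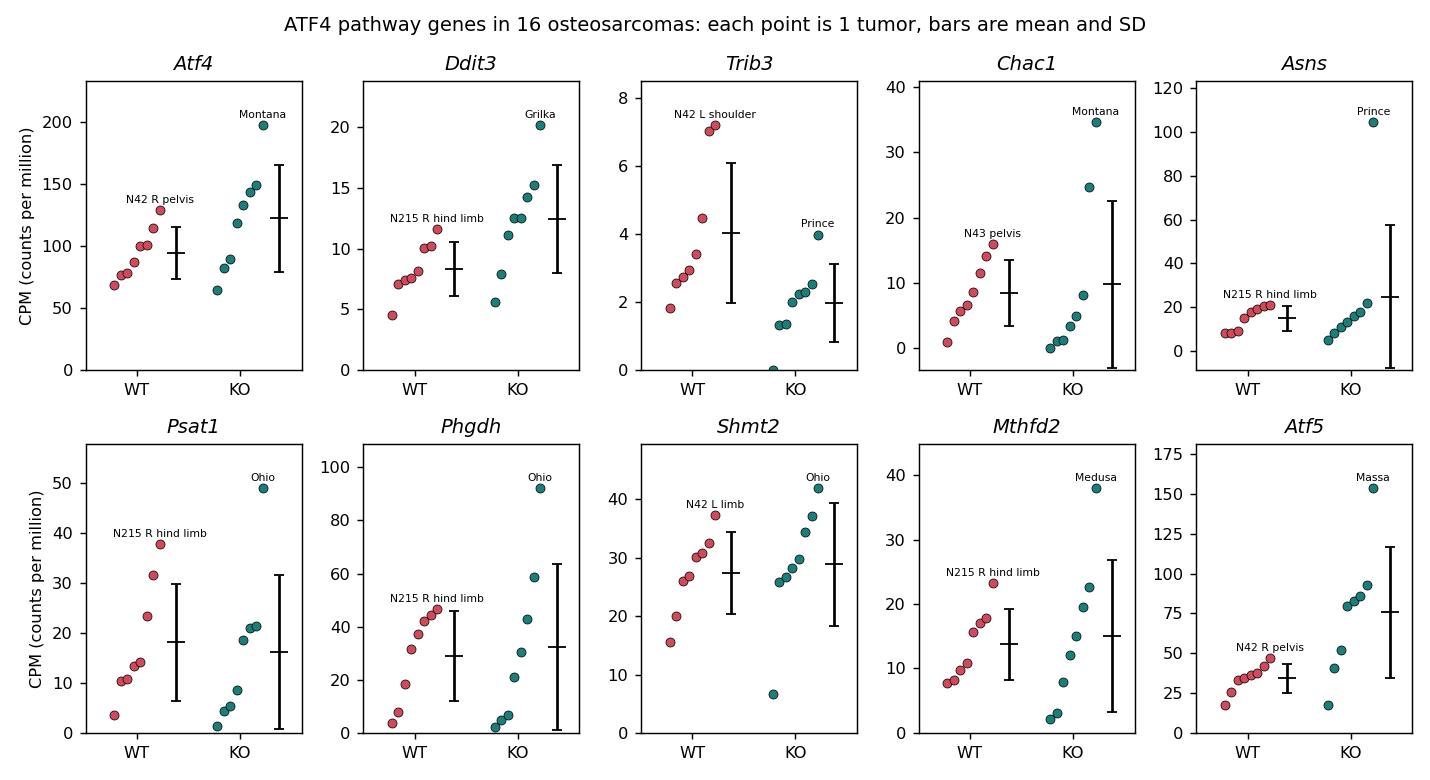
CPM of each of the 10 genes in the 8 WT and 8 KO tumors. Each point is 1 tumor, the horizontal mark and bar give the mean and SD, the vertical axis is linear, and the highest tumor of each group is named. The groups overlap in every panel, and in 9 of the 10 panels the highest point is a KO tumor.

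Among the transcription factors, *Atf4* itself varied least. The gene lies on chromosome 15 from 80255184 to 80257541 (GRCm38). Its lowest, median and highest levels were 64.7 CPM (Massa), 126 CPM and 197 CPM (Montana) in KO, and 68.9 CPM (the N25 tumor), 93.5 CPM and 129 CPM (the right pelvis tumor of N42) in WT. In 4 KO tumors it was above every WT tumor and in 1 below every WT tumor. The mean was 122 ± 42.9 CPM in KO and 94.3 ± 20.6 CPM in WT (SD, n = 8 each), with a log2 fold change, KO over WT, of 0.38 (SE, standard error, 0.23, adjusted p by edgeR 0.352). Without Montana and Oregon it was 0.14 (edgeR adjusted p = 0.788), in a fit chosen after seeing the data. These tumors had the most skeletal muscle markers and also the most *Atf4*, so leaving them out lowers the KO level by itself. Per kilobase of exon, *Atf4* was the most abundant of the 10 in WT, with 40.0 ± 8.72 CPM per kb (SD, n = 8), followed by *Atf5* with 17.2 ± 4.59.

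*Atf5*, on chromosome 7 from 44812256 to 44816658, encodes a related bZIP factor that is translated in the same manner under stress and is known for its part in the mitochondrial unfolded protein response. Its lowest, median and highest levels were 17.3 CPM (Zelda), 81.3 CPM and 154 CPM (Massa) in KO, and 17.6 CPM (the left limb tumor of N42), 35.5 CPM and 46.8 CPM in WT. In 6 of 8 KO tumors it was above every WT tumor, while Ohio, with 40.7 CPM, lay within the WT range and Zelda just below it. The mean was 75.8 ± 41.0 CPM in KO and 34.2 ± 9.14 CPM in WT (SD, n = 8 each). Its log2 fold change of 1.14 (SE 0.34) was the largest of the 10 in size and had an edgeR adjusted p of 0.0637. With DESeq2 the adjusted p was 0.0153. Of the 16 edgeR fits that each left out 1 tumor, only that without Zelda was past the threshold, with an adjusted p of 0.0123. Zelda was the KO tumor with the least *Atf5*, so leaving it out raises the KO level by itself. The exact 2-sided permutation test gave p = 0.0210 over the tumors and p = 0.0929 over the mice. Pearson's r of *Atf5* with the ribosomal RNA content (log2 values) was 0.76 over the 16 tumors, 0.68 within KO and 0.39 within WT. The 5 tumors with the most *Atf5* had from 12083 CPM (Montana) to 426453 CPM (Massa) of the ribosomal RNA genes, while Ohio and Zelda had 4068 and 3603. Grilka, with the most of all, 588378 CPM, came after these 5 with 52.4 CPM of *Atf5*. With the ribosomal RNA share as a covariate the log2 fold change was 0.27 (SE 0.47, adjusted p by edgeR 0.904). All 3 ribosomal RNA genes were higher in KO. In this and the other fits with this covariate, genotype and ribosomal RNA content therefore cannot be told apart. The gene overlaps *Nup62* and *Il4i1* on the opposite strand, and whether the libraries keep strand is not given in the sources used here, so reads in the overlap cannot be assigned with certainty.

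*Ddit3*, which encodes the pro-apoptotic factor CHOP, lies on chromosome 10 from 127290774 to 127296288 and was expressed at lower levels. In KO it ran from 5.63 CPM (Ohio) over a median of 12.5 to 20.1 CPM (Grilka), and in WT from 4.52 CPM (the N25 tumor) over 7.86 to 11.6 CPM (N215). In 5 KO tumors it was above every WT tumor. The mean was 12.4 ± 4.46 CPM in KO and 8.33 ± 2.22 CPM in WT (SD, n = 8 each), and the log2 fold change was 0.56 (SE 0.29, adjusted p by edgeR 0.253). Grilka, which was highest, also had the most ribosomal RNA, and with the ribosomal RNA share as a covariate the log2 fold change was −0.11 (SE 0.38, adjusted p by edgeR 0.967). *Ddit3* overlaps *Mars* and *Gm4189* on the opposite strand at its ends. A second protein-coding entry named *Ddit3* lies on its own strand from 127290829 to 127293753 and is not among the counted genes.

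*Trib3* encodes a pseudokinase that is induced by ATF4 and CHOP and dampens their activity. It lies on chromosome 2 from 152337422 to 152344032. It was the least abundant of the 10 per kilobase, with 0.927 ± 0.540 CPM per kb in KO and 1.89 ± 0.967 in WT (SD, n = 8 each). In KO it ran from 0 CPM in Massa (0 counts) over a median of 2.12 to 3.98 CPM in Prince, and in WT from 1.82 CPM (left limb tumor of N42) over 3.19 to 7.20 CPM (left shoulder tumor of N42). Massa and Grilka, with 0 counts and 1 count, were too shallow to place *Trib3* against WT, since 3 counts are worth 6.69 and 4.03 CPM there. Of the other 6 KO tumors all but Prince were below the WT median, and Zelda, with 1.36 CPM from 20 counts, was below every WT tumor. The 3 WT tumors with the most *Trib3* were the left shoulder, right femur and right pelvis tumors of N42, with 7.20, 7.04 and 4.47 CPM. The log2 fold change was −0.89 (SE 0.40, adjusted p by edgeR 0.199). The exact 2-sided permutation test gave p = 0.0179 over the tumors and p = 0.178 over the mice, and without the 4 tumors of N42 the log2 fold change was −0.42. Both permutation tests include Massa and Grilka. Over the tumors the 0 counts of Massa enter as a log2 CPM of −2.56, a value set by the prior count. Without these 2 shallowest libraries the log2 fold change was −0.78 (SE 0.39, adjusted p by edgeR 0.215).

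*Chac1*, on chromosome 2 from 119351229 to 119354381, encodes an enzyme that degrades glutathione and is a common readout of ATF4 activity. It had the widest spread of the 10 among KO tumors on the log2 scale, where the 0 counts of Massa enter as −2.56, a value set by the prior count. In KO it ran from 0 CPM in Massa (0 counts) over a median of 4.13 to 24.6 CPM in Oregon and 34.7 CPM in Montana, and in WT from 0.968 CPM (the N25 tumor) over 7.58 to 15.9 CPM (pelvis tumor of N43). Only Montana and Oregon were above the WT range. These 2 tumors had the highest summed skeletal muscle markers of the 16, and the 3 WT tumors with the most *Chac1* (pelvis of N43, N215 and spine of N43, with 15.9, 14.1 and 11.4 CPM) were the 3 WT tumors with the most muscle markers (7546, 5462 and 2607 CPM). In KO, Zelda, Prince, Ohio and Medusa had 3.19, 6.47, 64.4 and 209 CPM of muscle markers and 1.09, 3.40, 1.14 and 4.86 CPM of *Chac1*. Grilka had 205 CPM of these markers and 8.06 CPM of *Chac1*, from 6 counts. Massa was too shallow to place, with 0 counts of *Chac1* where 3 counts are worth 6.69 CPM. The part of muscle tissue in the *Chac1* level was not tested. The log2 fold change was 0.24 (SE 0.74, adjusted p by edgeR 0.881) with all tumors. It was −1.50 (SE 0.67, adjusted p by edgeR 0.229) without Montana and Oregon, the highest tumors, in a fit chosen after seeing the data.

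*Asns*, which encodes asparagine synthetase, lies on chromosome 6 from 7675169 to 7693254. In WT it was between 8.08 CPM (spine tumor of N43) and 21.1 CPM (N215), with a median of 16.6. In KO it ran from 5.03 CPM in Oregon over a median of 14.8 to 104 CPM in Prince, which stood far above the WT range, since the next, Zelda, had 21.97 CPM. Prince was also the tumor with 104826 CPM of salivary gland markers and only 445 CPM of osteoblast markers. The log2 fold change was 0.75 (SE 0.52, adjusted p by edgeR 0.411), and without Prince it was −0.17 (SE 0.34, adjusted p by edgeR 0.826). The 3 promoter sites shown above thus belonged to genes with 3 patterns. *Asns* was highest in Prince, *Chac1* in Montana and Oregon, and *Trib3* in the left shoulder, right femur and right pelvis tumors of N42.

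**Figure D2:**
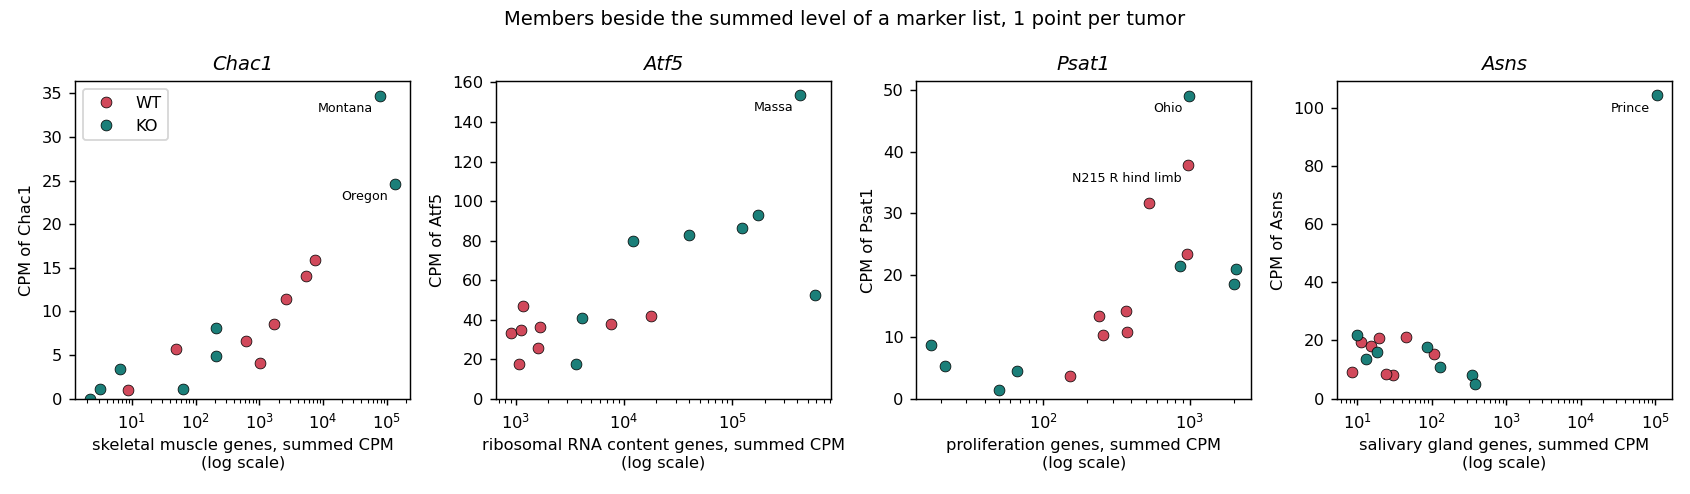
CPM of *Chac1*, *Atf5*, *Psat1* and *Asns* (vertical axes, linear) against the summed CPM of skeletal muscle, ribosomal RNA content, proliferation and salivary gland genes (horizontal axes, log scale), with 1 point per tumor and the highest tumors named. Montana and Oregon stand at the upper right for *Chac1*, and Prince stands alone for *Asns*.

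The enzymes that make serine from a glycolytic intermediate varied far more among tumors than between the groups. *Phgdh*, on chromosome 3 from 98313170 to 98339990, catalyzes the first and rate-limiting step. It ran from 2.23 CPM (Massa) over a median of 25.8 to 92.3 CPM (Ohio) in KO, and from 3.63 CPM (spine tumor of N43) over 34.4 to 46.5 CPM (N215) in WT. The highest KO tumor thus had 41.4 times the level of the lowest, although that lowest value rests on 1 count. The log2 fold change was 0.18 (SE 0.63, adjusted p by edgeR 0.895). *Psat1*, which catalyzes the next step, lies on chromosome 19 from 15904678 to 15947337. It ran from 1.40 CPM (Oregon) over 13.6 to 49.0 CPM (Ohio) in KO and from 3.63 CPM (spine tumor of N43) over 13.7 to 37.8 CPM (N215) in WT. Its log2 fold change was −0.13 (SE 0.58, adjusted p by edgeR 0.919). Ohio and N215 were thus the highest tumors of their groups for both enzymes, and the spine tumor of N43 was the lowest WT tumor for both.

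The mitochondrial folate enzymes take the carbon of serine onward. *Shmt2*, on chromosome 10 from 127517123 to 127522444, splits serine into glycine and a folate-bound carbon. It was steady in WT, from 15.5 CPM (the N25 tumor) over 28.5 to 37.3 CPM, and in KO it ran from 6.69 CPM in Massa, which rests on 3 counts, over 29.02 to 41.98 CPM in Ohio. The other 7 KO tumors lay between 25.8 and 41.98 CPM. Its log2 fold change was 0.09 (SE 0.28, adjusted p by edgeR 0.878), the smallest in size of the 10. *Mthfd2*, on chromosome 6 from 83305691 to 83325908, oxidizes that carbon unit. It ran from 2.23 CPM (Massa) over 13.6 to 38.01 CPM (Medusa) in KO and from 7.80 CPM (spine tumor of N43) over 13.2 to 23.3 CPM (N215) in WT. The fitted log2 fold change was 0.17 (SE 0.45, adjusted p by edgeR 0.867). *Shmt2* overlaps the end of *Ndufa4l2* on the opposite strand, and *Mthfd2* contains *Gm43890* on its own strand.

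Of these 4 enzymes, *Psat1*, *Phgdh* and *Mthfd2* went with the summed proliferation markers across the 16 tumors, with Pearson's r of log2 values of 0.76, 0.66 and 0.62, given as a description of tumors that share depth and, in part, a mouse. For *Shmt2* r was 0.33, with 0.28 within the 8 KO and 0.70 within the 8 WT tumors. Montana, Prince, Oregon and Massa had between 17.3 and 66.9 CPM of summed proliferation markers, the lowest of the 16, and between 1.40 and 8.67 CPM of *Psat1*. The other 4 KO tumors had between 858 and 2071 CPM of these markers and between 18.5 and 49.0 CPM of *Psat1*. In WT the spine tumor of N43 had the fewest proliferation markers (153 CPM) and the least *Psat1*, and N215 the most (979 CPM) and the most *Psat1*. The part of proliferation in the levels of these enzymes was not tested. In the comparison of Medusa and Ohio, the KO tumors in which no marker list of another tissue was raised, with the 8 WT tumors (Medusa still had 122377 CPM of the ribosomal RNA genes), the log2 fold changes were 1.34 for *Phgdh*, 0.91 for *Psat1*, 0.91 for *Mthfd2* and 0.44 for *Shmt2* (edgeR adjusted p = 0.260, 0.410, 0.235 and 0.389). The WT side was not filtered and kept the N25 tumor, with 26347 CPM of lung markers. Medusa and Ohio had 2071 and 997 CPM of proliferation markers, against a WT median of 372.

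**Figure D3:**
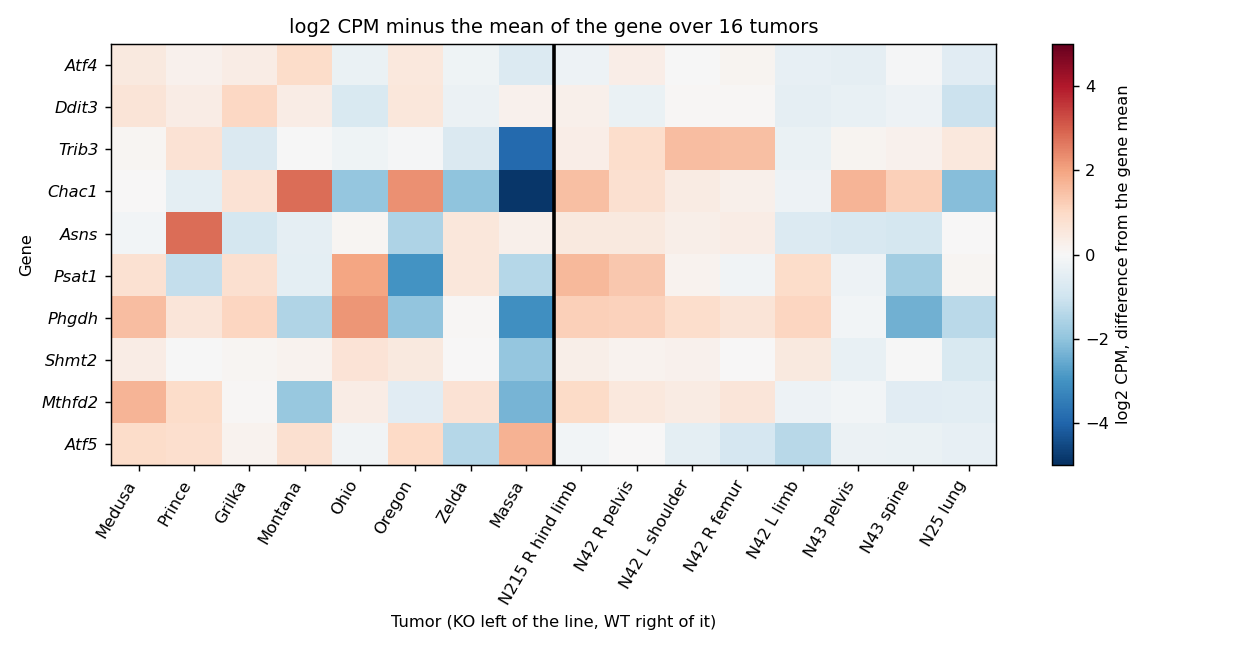
log2 CPM of the 10 genes (rows) in the 16 tumors (columns, KO left of the line and WT right of it, each ordered by the mean of the 10 standardized values), as the difference from the mean of the gene, red for higher and blue for lower. *Phgdh*, *Psat1* and *Mthfd2* share much of their pattern, and Massa is low for most genes but highest for *Atf5*.

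The spread among KO tumors was larger than among WT tumors for all 10 genes on the log2 scale, as it was for 90.4% of all tested genes. The median SD of log2 CPM was 1.33 in KO and 0.59 in WT over the 10 genes, and 1.11 and 0.51 over all tested genes. *Atf4* had a KO SD of 0.53, higher than that of 10.7% of genes. *Chac1* had a KO SD of 2.50, higher than that of 92.0% of genes, and *Phgdh* had a WT SD of 1.34, higher than that of 90.8%. Massa was the lowest KO tumor for 6 of the 10 genes. In Massa *Trib3* and *Chac1* had 0 counts, *Phgdh* and *Mthfd2* 1 count each and *Shmt2* 3 counts. The 0 counts enter as a log2 CPM of −2.56, a value set by the prior count. These values are part of the KO SDs and of the mean differences below, and the spread without Massa was not computed. WT tumors of the same mouse differed in *Phgdh* by 0.56 on the log2 scale on average (7 pairs) and tumors of different WT mice by 1.79 (21 pairs), while KO tumors differed by 2.24 (28 pairs). For *Chac1* these mean differences were 0.54, 1.67 and 2.99, and for *Atf4*, where tumors of the same mouse differed as much as tumors of other mice, they were 0.39, 0.37 and 0.63.

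Pairs of the 10 genes ranged from opposite to closely parallel across the tumors. Over the 45 pairs of genes, Pearson's r of log2 CPM across the 16 tumors ranged from −0.46 to 0.81 with a median of 0.16, and 14 pairs were negative. The tumors share depth, ribosomal RNA content and other tissue as sources of variation, and some share a mouse, so r is given as a description. The highest were *Psat1* with *Phgdh* (r = 0.81, Spearman's rho 0.90) and *Phgdh* with *Mthfd2* (r = 0.80, rho 0.73). For *Psat1* with *Phgdh* it was 0.80 within the 8 KO and 0.83 within the 8 WT tumors. The median over the 45 pairs was 0.08 within KO and 0.38 within WT. *Atf4* had r = 0.67 with *Chac1* (0.96 within KO, 0.38 within WT), 0.64 with *Ddit3* (0.59 and 0.53) and 0.50 with *Shmt2* (0.58 and 0.46). With *Asns* it had r = −0.10, which was −0.32 within KO and 0.47 within WT. With *Psat1* it had −0.19 (−0.19 and 0.03) and with *Phgdh* 0.07 (0.05 and 0.27), in the same order. The r of *Atf4* with *Chac1* within KO and over the 16 tumors includes Massa, whose 0 counts of *Chac1* enter as a value set by the prior count. *Atf5* had r = −0.46 with *Psat1* (−0.59 within KO, 0.06 within WT) and −0.39 with *Phgdh* (−0.52 and −0.16). Among the other tested genes, those closest to the mean standardized level of the 10 over the 16 tumors were *Rps19bp1* (r = 0.90), *Zscan25* (r = 0.89) and *Gramd1a* (r = 0.87). *Rps19bp1* lies on chromosome 15 from 80260615 to 80264315, on the strand opposite to *Atf4* and 3074 bases from it.

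**Figure D4:**
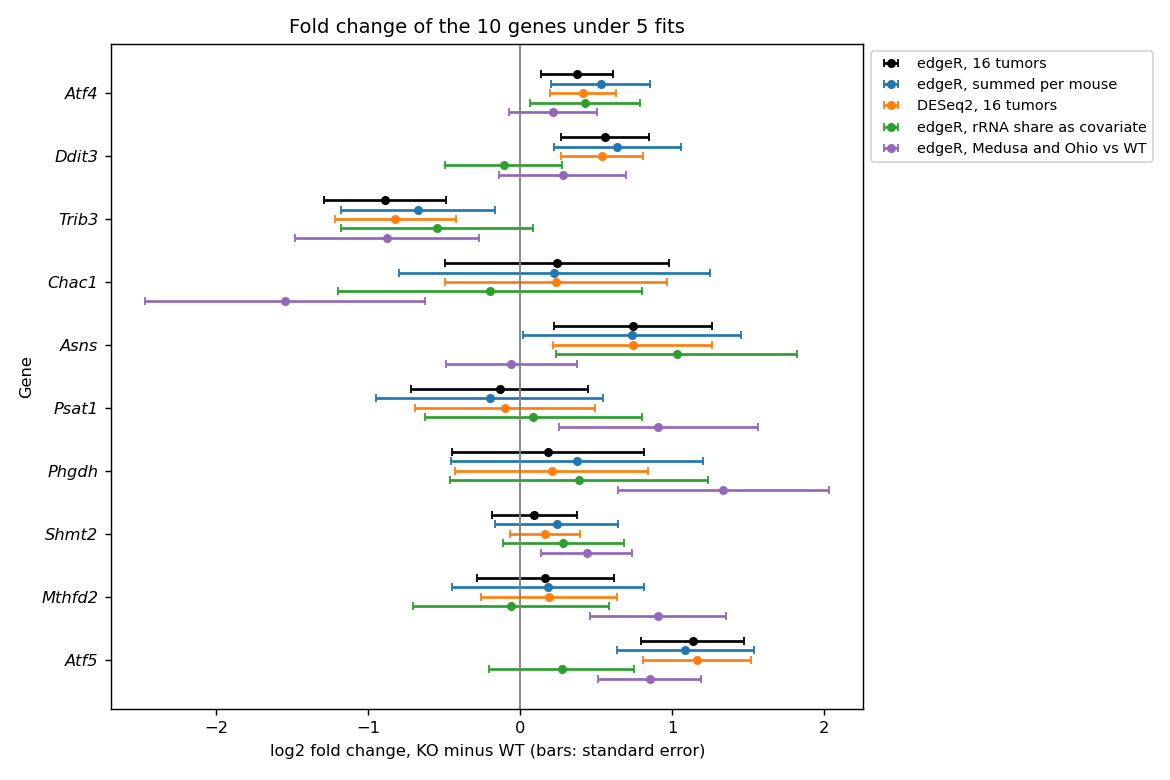
Fitted log2 fold change, KO minus WT, of the 10 genes (points) with its standard error (bars) under 5 fits: edgeR on 16 tumors, edgeR on counts summed per mouse, DESeq2, edgeR with the ribosomal RNA share as a covariate, and edgeR on Medusa and Ohio against WT. *Atf5* moves from 1.14 to 0.27 with the covariate, and *Chac1* from 0.24 to −1.55 with only Medusa and Ohio.

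Of 9 genes upstream of *Atf4*, the eIF2 kinases with their regulators and target, none was past the threshold in edgeR, against 4.01% of all genes, and none had an unadjusted p under 0.05, against 23%. The median log2 fold change was 0.08, where that of all genes was 0.10, and the smallest p belonged to *Eif2b5*, a subunit of the exchange factor that phosphorylated eIF2 blocks, with 0.48 (SE 0.24, adjusted p by edgeR 0.237). *Eif2b5* was highest in Montana and Oregon, the tumors with the most skeletal muscle markers, with 77.3 and 54.5 CPM. Its log2 fold change was 0.28 without Montana, 0.14 without both (a fit chosen after seeing the data) and 0.03 with only Medusa and Ohio as KO. The ATF6 and IRE1 arms of the unfolded protein response hold chaperones and regulators that respond to endoplasmic reticulum stress without ATF4. Of 16 genes of these arms none was past the threshold, against 4.01% of all genes. Of the 16, 2 had an unadjusted p under 0.05, both higher in KO, against 13.3% of all genes. The median was 0.14 against 0.10 over all genes. The smallest p was that of *Sdf2l1* (log2 fold change 1.23, standard error 0.48, edgeR adjusted p = 0.142). *Sdf2l1* had 40.2 CPM in Prince, against 14.8 CPM in the next KO tumor, and without Prince its log2 fold change was 0.56.

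Of 20 further serine, glycine and folate enzymes, 17 had a positive and 3 a negative log2 fold change, with a median of 0.60. Over all tested genes 44.1% were negative and the median was 0.10. In edgeR 1 was past the threshold and higher in KO, against 1.86% of all genes, and 5 had an unadjusted p under 0.05, all higher, against 13.3%. The gene past the threshold was *Gcsh*, on chromosome 8, which encodes the lipoyl-carrying H protein of the glycine cleavage system in mitochondria. It ran from 11.1 CPM over a median of 16.3 to 21.9 CPM in KO and from 4.34 CPM over 5.99 to 9.30 CPM in WT. The groups thus did not overlap, as was so for 0.415% of all genes. The mean was 16 ± 3.88 CPM in KO and 6.42 ± 1.77 CPM in WT (SD, n = 8 each), which gave a fitted log2 fold change of 1.31 (SE 0.25, adjusted p by edgeR 0.0114). Summed per mouse, the 8 KO mice had between 10.9 and 20.3 CPM and the 4 WT mice between 4.11 and 8.51 CPM. The exact 2-sided permutation test over the mice gave p = 0.00202, the smallest it can give, and edgeR on the mice an adjusted p of 0.394 with a log2 fold change of 1.19. With the ribosomal RNA share as a covariate the log2 fold change was 1.04 (edgeR adjusted p = 0.403). *Gcsh* is named because it passed the threshold in these same counts. The permutation p is not adjusted for that choice and adds no separate support.

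Of 12 amino acid transporters none was past the threshold in edgeR, against 4.01% of all genes. Of the 12, 7 had a negative log2 fold change, against 44.1% of all genes, and the median was −0.22, against 0.10. There were 4 with an unadjusted p under 0.05, all lower in KO, against 9.75% of all genes. *Slc36a4*, a transporter of proline and tryptophan, ran from 8.47 CPM over 22.03 to 65.8 CPM in KO and from 42.8 CPM over 67.8 to 97.3 CPM in WT, with 7 of 8 KO tumors below every WT tumor. Its log2 fold change was −1.42 (SE 0.39, adjusted p by edgeR 0.0502), and without the 2 shallowest libraries it was −1.78 (edgeR adjusted p = 0.0232). Summed per mouse it was −1.13 (edgeR adjusted p = 0.630), and without the 4 tumors of N42 it was −1.05 (edgeR adjusted p = 0.652). Of 20 other genes that ATF4 is known to induce, 18 were tested. At an unadjusted p under 0.05, 2 were higher and 2 lower, against 13.3% and 9.75% of all genes. Of the 18, 8 had a positive and 10 a negative log2 fold change, against 44.1% negative over all genes. Their median was −0.05, against 0.10. In edgeR 1 was past the threshold and lower in KO, against 2.15% of all genes. This was *Ddit4*, on chromosome 10, an inhibitor of mTORC1 that also responds to hypoxia and glucocorticoids. It ran from 27.4 CPM over 63.9 to 95.3 CPM in KO, and in WT from 30.1 CPM in the N25 tumor and 78.9 CPM in N215 to between 228 and 306 CPM in the 6 tumors of N42 and N43. Its log2 fold change was −1.83 (SE 0.41, adjusted p by edgeR 0.0219). The N25 and N215 tumors thus lay within the KO range, and summed per mouse the log2 fold change was −1.31 (edgeR adjusted p = 0.568; exact 2-sided permutation test over the mice, p = 0.158).

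**Figure D5:**
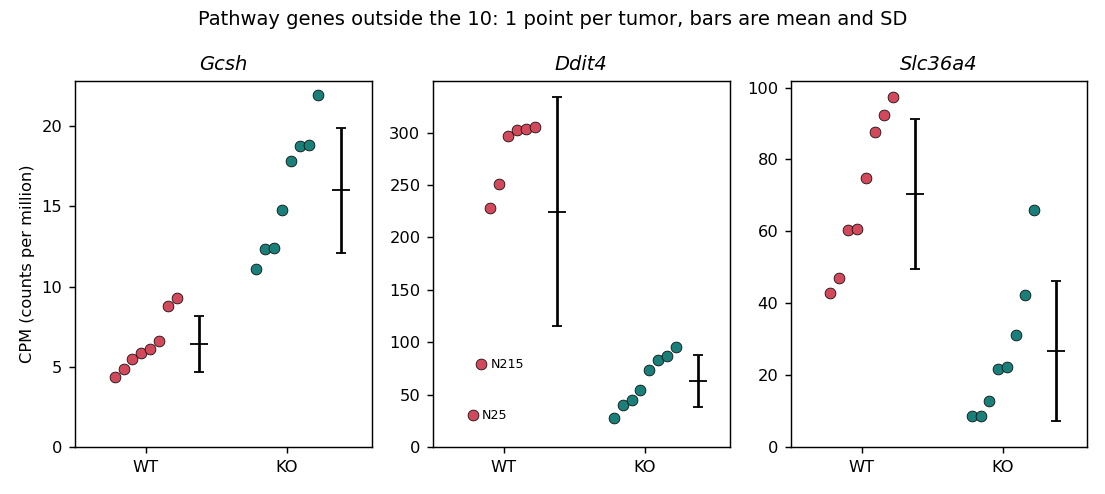
CPM of *Gcsh*, *Ddit4* and *Slc36a4* in the 8 WT and 8 KO tumors, with 1 point per tumor, the mean and SD beside the points, and a linear axis from 0. The groups do not overlap for *Gcsh*, and for *Ddit4* the tumors of N215 and N25 are marked among the KO levels.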

How the data were processed

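Total RNA of 16 osteosarcomas was depleted of ribosomal RNA and sequenced from one end. Per the labels and the paper, the authors aligned reads with Novoalign 2.08.01 to mm10 plus Ensembl splice junctions, with repeated alignments permitted and the best retained. The values are the raw counts per gene that the authors deposited, made with USeq before DESeq2 1.26.0. Nothing was normalized or pooled in them.

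Counts were compared with edgeR 4.0.16 in R 4.3.3 (TMM, filterByExpr at 10 counts and 15 in total, glmQLFit, glmQLFTest, Benjamini-Hochberg threshold 0.05), which tested 15413 genes and left out 9641. The standard error is the log2 fold change divided by the square root of F. CPM are counts over the TMM-scaled library size of the tested genes, and log2 CPM has a prior count of 2. DESeq2 1.42.0 (default settings) and limma 3.58.1 (voom, mouse as a random effect) were alternatives. The basic edgeR, DESeq2 and voom fits were tested on simulated counts that held no effect of a shared mouse. The other fits were not tested in this way. Permutation tests used all 12870 splits of tumors or 495 of mice. Where replicates are tumors of the same mouse, p-values measure the spread between tumors. Every counting floor covers counting error only.

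Positions, overlaps and exon lengths come from GENCODE vM21 (GRCm38), and promoters from RefSeq (GRCm38.p6), where all 10 symbols matched. The 10 genes and the pathway and marker lists were chosen with earlier results of these data known. The ribosomal RNA content is the sum of CT010467.1, *Gm23935* and *Lars2*, of which *Lars2* is a protein-coding gene used as a stand-in. The other genes named are those past the threshold in each pathway list, or the gene with the smallest p where none was, and the 3 genes closest in pattern to the 10. Of the kidney markers, 3 of 6 were found and summed to at most 14.9 CPM, and erythroid markers summed to at most 1444 CPM (Zelda).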

Additional observations from a re-analysis of the deposited data

Results flagged for a closer look

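A tumor stood far from the other 7 of its group in 4 of 30 comparisons of 8 values (Dixon's criterion at the 95% level). Chance meets this criterion in about 1 of 20 groups of normally distributed values. It was applied here to linear CPM, for which that rate need not hold. Prince had 104 CPM of *Asns*, and the next KO tumor had 21.97. Prince also had 40.2 CPM of *Sdf2l1*, against 14.8 in the next. Ohio had 49.0 CPM of *Psat1*, against 21.5 in the next. Massa had 6.69 CPM of *Shmt2*, which is 3 counts, and the next lowest KO tumor had 25.8.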

How the results depend on the processing

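No paired analysis was possible because no mouse is in both groups. The number of the 10 genes past the threshold was 0 in edgeR, 1 with DESeq2 and from 0 to 1 when 1 tumor at a time was left out, the 1 being *Atf5* each time, and 0 under every other alternative. The median log2 fold change of the 10 was from 0.08 to 0.38 when 1 tumor was left out. Over all genes the count of 618 became 2517 with DESeq2, 17 with limma-voom and the mouse as a random effect, 10 with counts summed per mouse, 8 without the 4 tumors of N42, 133 without mouse N43, 7 with the ribosomal RNA share as a covariate and 372 without Montana and Oregon, an alternative chosen after seeing the data. When 1 tumor was left out it lay between 252, without the left shoulder tumor of N42, and 1348, without Zelda. Signs of genes far from the threshold turned. The log2 fold change of *Chac1*, 0.24, became −0.58 with limma-voom, −0.068 without N42, −1.55 with only Medusa and Ohio, −0.20 with the ribosomal RNA covariate and −1.50 without Montana and Oregon. That of *Psat1*, −0.13, became 0.069, 0.91, 0.087 and 0.16 in the last 4 of these. *Asns* became −0.057 with only Medusa and Ohio, *Ddit3* −0.11 and *Mthfd2* −0.059 with the covariate, and *Phgdh* −0.092 without mouse N43. When 1 tumor was left out, *Chac1* ran from −0.42 (without Montana) to 0.44, *Asns* from −0.17 (without Prince) to 0.90, *Psat1* from −0.65 (without Ohio) to 0.16, *Phgdh* from −0.27 and *Shmt2* from −0.0082 (both without Ohio) to 0.36 and 0.22, and *Mthfd2* from −0.19 (without Medusa) to 0.35. Across 28 alternatives *Atf4* and *Atf5* stayed positive and *Trib3* negative in every one. *Gcsh* was past the threshold in 22 of 28 (highest adjusted p 0.403) and *Ddit4* in 20 (highest 0.586), each with the same direction throughout. *Slc36a4* was past it in 8 of 28. Of the 10 genes, 4 had a fitted fold change of the other sign than their difference in mean log2 CPM. Low depth limits the KO side most, where 3 counts are worth up to 6.69 CPM.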
